A study of Homo sapiens with 6 samples.

Results

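Among 6 libraries of KYSE30 cells, the 4 that received si-RAB23-9 or the control siRNA si-NC were compared with each other. KYSE30 is an established human line from a squamous cell carcinoma of the oesophagus. All groups carried a siRNA at 100 nM, delivered with the lipid reagent HiPerFect, so the control cells were transfected as well, and total RNA was taken with Trizol as the cultures neared confluence. The groups used here are si-NC (2 libraries), si-RAB23-9 (2 libraries) and, only where a difference between siRNAs is given, si-RAB23-1 (2 libraries), which is directed against the same gene. The question of the comparison, by the design text, is which transcripts differ from the reference si-NC once RAB23 is knocked down. Values are FPKM, fragments per kilobase of gene scaled to the sequenced total, and of 58735 genes in the table the 13880 with an FPKM of at least 1 in at least 2 of the 4 libraries were tested, 10882 of them protein coding. A single line, 1 reagent and 1 dose were used, and no source used here gives the time of harvest. The design text calls the 2 libraries of a group biological replicates without saying whether they were separate cultures, so the p-values rest on a spread between libraries that may be technical.

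The protein RAB23 is a Rab-type GTPase, known for holding back Hedgehog signalling and for its links to the primary cilium. A siRNA is loaded into an Argonaute protein and directs cleavage of a fully matched transcript, while transcripts that match only its seed, the bases near the 5′ end of the guide strand, can also be lowered, mostly through their 3′ UTRs. Double-stranded RNA in the cytosol can also be sensed by RIG-I, MDA5 and PKR, which leads to interferon, to activation of STAT factors and IRF9, and to the transcription of antiviral genes through a promoter element called the interferon-stimulated response element. No source used here gives the sequences of these siRNAs.

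Between 17959115 and 24178125 reads per library could be recovered from the FPKM of the 4 libraries, and 13576 to 13700 genes reached 1 FPKM. Spearman correlations over the genes tested were 0.986 within each group and 0.976 to 0.979 between the groups. Of 15 squamous epithelial markers 13 were at 1 FPKM or more in all 4 libraries, and KRT5 and PKP1 were under 0.1 in all of them. The summed level of the squamous markers was 1009 and 961 FPKM with si-NC and 863 and 855 with si-RAB23-9, so it moved with the groups, and its part in the results was not tested. Its members went both ways. ITGB4, at 407 and 377 against 293 and 290 FPKM, makes up most of the difference, while PERP (64.5 and 67.7 against 78.3 and 77.95) and SOX2 (35.8 and 40.6 against 65.4 and 62.5) were higher. Of the markers of other cell types, 1 of 10 for fibroblasts (COL1A1), 0 of 10 for leukocytes, 1 of 7 for endothelium (CDH5) and 0 of 9 for simple columnar epithelium reached 1 FPKM in all 4 libraries. Their summed levels were at most 3.97, 1.09, 3.99 and 1.10 FPKM in any of the 4 libraries. At these low levels the sums also lay apart between the groups. With si-RAB23-9 they were higher for fibroblast and simple columnar markers and lower for leukocyte and endothelial markers. In bulk RNA of this kind, fewer cells that express a gene and less RNA per cell cannot be told apart.

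RAB23, the targeted gene (ENSG00000112210, chromosome 6, 57186992 to 57222314, GRCh38), stood at 3.27 and 3.33 FPKM with si-NC, 1.18 and 1.27 after si-RAB23-9, and 1.03 and 1.10 after si-RAB23-1. Both siRNAs gave levels below each control library, without overlap. A lack of overlap between si-RAB23-9 and si-NC was common, at 8605 of the 13880 genes tested. With si-RAB23-9, RAB23 stood at 0.372 times the control, and it fell by 0.95 on the scale used for all tests, log2(FPKM + 1) (SE 0.08, limma adjusted p = 0.00358). Changes at low FPKM are shrunk on that scale, and voom on the recovered reads gave −1.43. The fall kept its call without each of the 4 libraries in turn, with an adjusted p of at most 0.0408. Exons of BAG2, a co-chaperone gene on the opposite strand, and of other genes cover 57.7% of the exonic bases of RAB23, and whether reads were assigned by strand is not given in the sources used here. BAG2 itself was at 3.06 and 3.37 FPKM with si-NC, against 4.04 and 4.13 after si-RAB23-9 (log2 difference 0.27, limma adjusted p = 0.0386), the opposite direction to RAB23.

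At an adjusted p under 0.05, 1108 genes rose (7.98% of those tested) and 838 fell (6.04%) after si-RAB23-9, relative to si-NC. Most changes were small. The median size of a called rise was 0.33 and that of a called fall 0.34 on the log2 scale, and 26 genes rose and 19 fell by at least 1. The median over all genes tested was 0.01. Calls depended on the level of a gene. Under 3 FPKM 2.57% of genes were called higher and 2.27% lower, from 10 to 30 FPKM 13.5% and 8.48%, and from 30 to 100 FPKM 16.5% and 8.91%. Of protein-coding genes 9.56% were higher and 6.85% lower. The shares of all genes set beside gene lists below cover every level and kind of gene, so list shares only slightly above them are no sign of a difference. Calls also depended on having 2 libraries in each group. Without si-NC replicate 1, si-NC replicate 2, si-RAB23-9 replicate 1 and si-RAB23-9 replicate 2, in this order, 233, 176, 206 and 158 genes were higher and 158, 130, 202 and 139 lower, each time with 1 library left in a group, which is assumed to vary like the others. In all 4 of these refits 129 genes stayed called higher and 100 lower. Wherever counts without each library are given below, they follow this order of the 4 libraries.

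**Figure D1:**
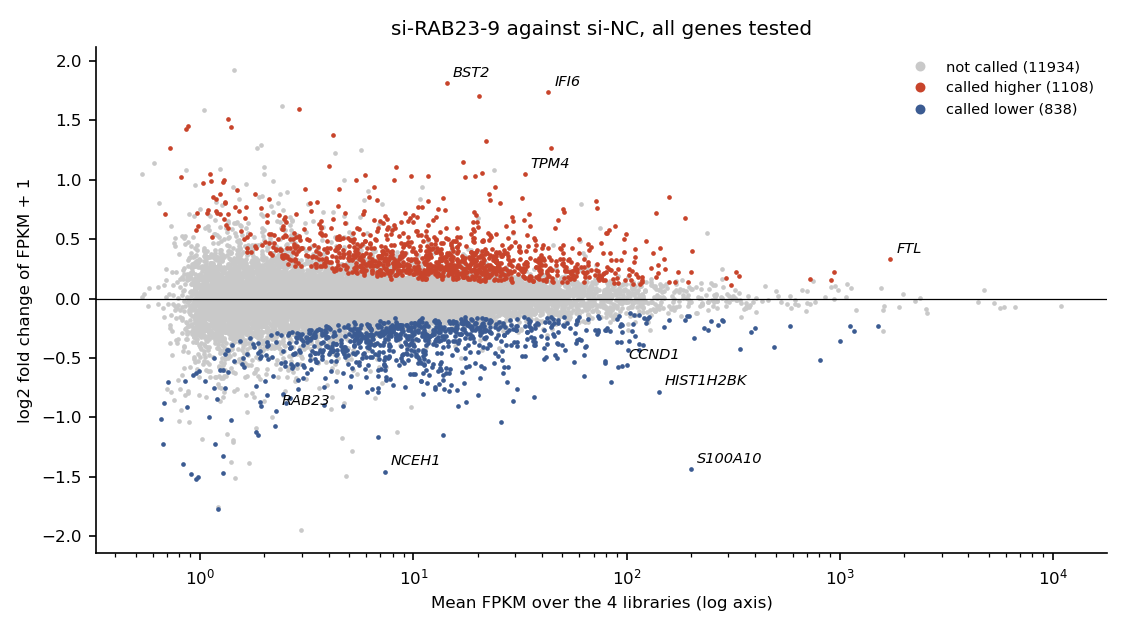
Log2 fold change of FPKM + 1 (si-RAB23-9 minus si-NC) against the mean FPKM of the 4 libraries on a log axis, 1 point for each of the 13880 genes tested, coloured where the adjusted p was under 0.05. The largest rises at moderate levels are BST2 and IFI6, and S100A10 and NCEH1 lie lowest among named genes.

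The genes that rose most were mainly antiviral genes. Among called genes with a mean of at least 3 FPKM and no overlap between the groups, the 12 with the largest rise included BST2, IFI6, IFITM1, OAS2, OAS1, IFI44, OAS3, IFIT1 and LAMP3, which interferon is known to induce. BST2, or tetherin, which holds budding virus particles at the cell surface (ENSG00000130303, chromosome 19, 17402939 to 17405648), stood at 6.18 and 5.39 FPKM with si-NC, 23.4 and 22.4 after si-RAB23-9, and 5.99 and 7.19 with si-RAB23-1. Only the si-RAB23-9 libraries were high (log2 difference 1.82, SE 0.09, limma adjusted p = 0.00129, from 165 and 118 reads to 494 and 444). IFI6, which codes for a small membrane protein, was at 19.4 and 18.98 FPKM with si-NC, against 68.1 and 64.6 with si-RAB23-9 (1.74, limma adjusted p = 0.00205). IFITM1, a membrane protein that restricts the entry of viruses, was at 9.89 and 8.15 FPKM and rose to 31.5 and 31.4 (1.70, limma adjusted p = 0.00136). It shares 32.5% of its exonic bases with other genes on its strand, IFITM2 among them, which was at 4.51 and 3.35 FPKM with si-NC, against 4.77 and 3.76 with si-RAB23-9 and did not pass (limma adjusted p = 0.691).

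The oligoadenylate synthetases, enzymes that bind double-stranded RNA and make a second messenger, all lay among these 12 genes apart from OASL. OAS1 was at 11.8 and 12.2 FPKM in the controls and 32.7 and 30.7 after si-RAB23-9 (log2 difference 1.33, limma adjusted p = 0.0011). OAS2 was at 1.74 and 2.04 against 6.77 and 6.23 FPKM (1.38), and OAS3 at 10.7 and 9.81 against 24.4 and 23.5 (1.15). OASL, a family member without synthetase activity, rose from 17.9 and 17.0 to 25.1 and 24.4 FPKM (0.48, limma adjusted p = 0.00382). With si-RAB23-1 the levels of OAS1 (10.8 and 11.8 FPKM), OAS2 (1.65 and 1.93) and OAS3 (8.81 and 8.77) lay at or below the higher control library.

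**Figure D2:**
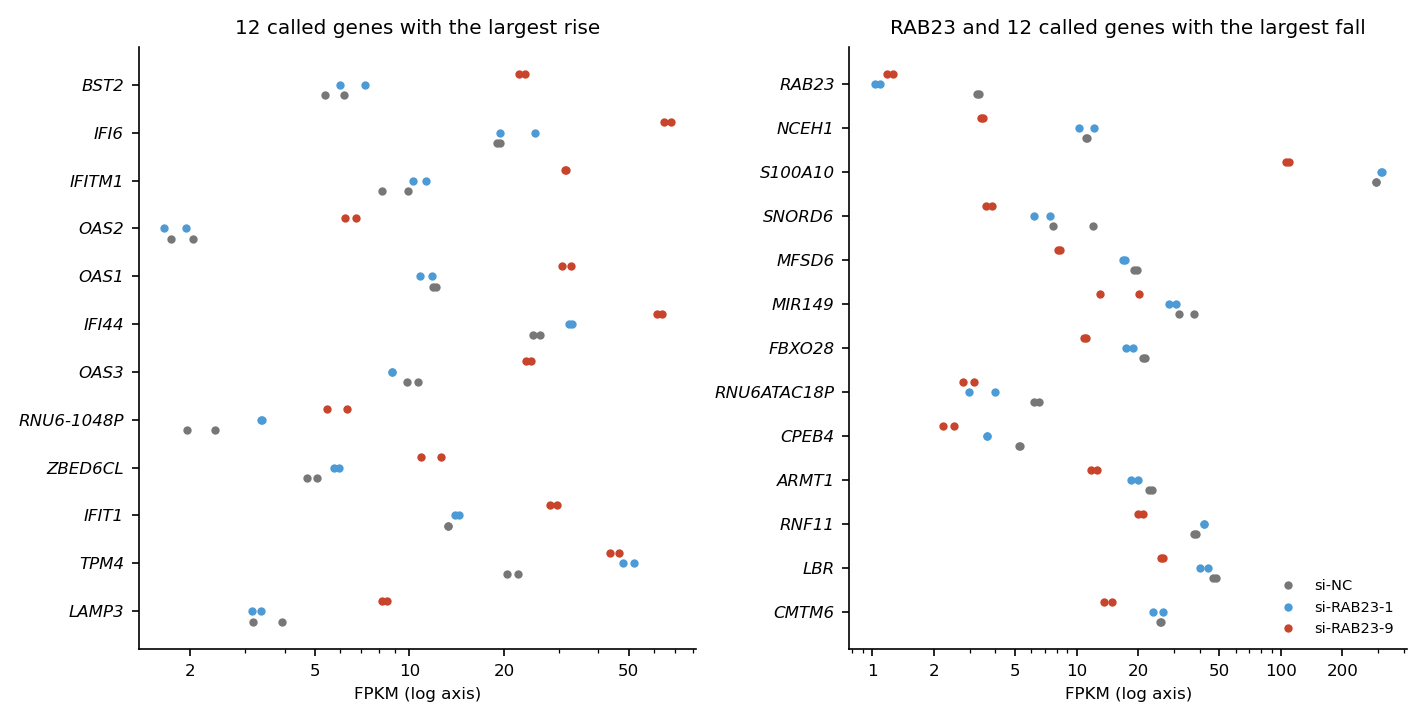
FPKM in each of the 6 libraries (log axis) for the 12 called genes with the largest rise (left) and for RAB23 with the 12 of largest fall (right), 1 point a library, grey for si-NC, blue for si-RAB23-1 and red for si-RAB23-9. For BST2 the red points lie at 23.4 and 22.4 and all other points at 7.19 or below, while for TPM4 and RAB23 the red and blue points lie together.

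Of 49 tested interferon-stimulated effectors, 36 rose (73.5%, against 7.98% of all genes) and 0 fell, at a median log2 difference of 0.59 against 0.01 over all genes tested. The other 13 members did not pass. Without each of the 4 libraries 25, 23, 24 and 24 members were called and 21 were called in all 4 refits, while the median stayed between 0.52 and 0.62. Leaving out IFI27 and IFI44L, which passed the level filter through si-RAB23-9 alone, 34 of 47 rose (72.3%) at a median of 0.55. Over all 49 the log2 differences ran from −0.15 to 1.82, with 48 above 0 and 1 below. Members that bind or sense foreign RNA included IFIT1, at 13.3 and 13.3 FPKM with si-NC and 29.6 and 28.0 with si-RAB23-9 (1.06, limma adjusted p = 0.000979), IFIT3 (26.4 and 25.9 against 43.7 and 43.3, 0.71) and ZC3HAV1, the zinc-finger antiviral protein (9.54 and 9.13 against 15.8 and 14.9, 0.67). ISG15, a ubiquitin-like protein that is conjugated to other proteins, was at 121 and 103 FPKM and rose to 201 and 207 (0.86, limma adjusted p = 0.0037), and UBE2L6, its conjugating enzyme, rose by 0.71. PARP9 and PARP14, ADP-ribosyltransferase family members, rose by 0.69 and 0.75, and HELZ2, a helicase, by 1.03. IFITM3 was the most abundant member to rise, at 144 and 145 FPKM with si-NC and 231 and 233 with si-RAB23-9 (0.68).

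Not every member followed. IFIT2 was at 35.0 and 35.6 FPKM with si-NC, against 37.7 and 37.8 after si-RAB23-9 (log2 difference 0.10, limma adjusted p = 0.121), and LY6E at 211 and 214 against 227 and 237 (0.13, limma adjusted p = 0.0931). A further 9 effectors of the list lay below the level filter and were not tested. MX1 was listed at 0.10, 0.07, 0.11 and 0.13 FPKM, RSAD2 at 0.45, 0.42, 0.55 and 0.55, and XAF1 at 0.08, 0.09, 0.38 and 0.40 in si-NC 1, si-NC 2, si-RAB23-9 1 and si-RAB23-9 2. IFI27 and IFI44L passed the filter only through the si-RAB23-9 libraries, so that a rise was built into their test. IFI44L was at 0.20 in both control libraries and at 1.45 and 1.42 after si-RAB23-9, and IFI27 at 0.35 and 0.48 against 1.68 and 1.96.

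**Figure D3:**
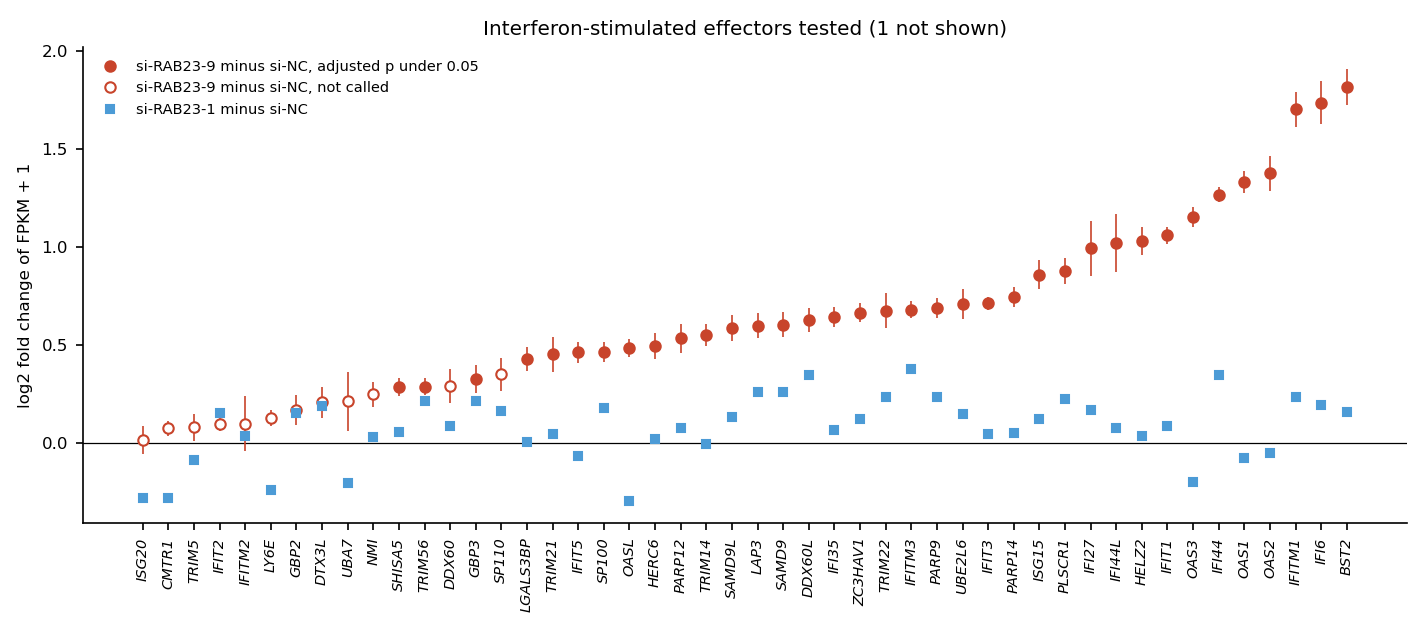
Log2 fold change of FPKM + 1 against si-NC for 48 of the 49 interferon-stimulated effectors tested, ordered by the change with si-RAB23-9 (red circles with SE, filled where the adjusted p was under 0.05) beside the change with si-RAB23-1 (blue squares, no test shown). The red series shown runs from 0.01 for ISG20 to 1.82 for BST2, and over all 49 members, of which 1 that did not pass is left out of the plot, the lowest value was −0.15, while no blue square lies above 0.38.

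The promoters of the 4 effectors of largest change that hold the core of the interferon-stimulated response element are shown because this element is how interferon signalling reaches such genes. Each runs 5′ to 3′ along the gene, from 250 bases before to 50 after the start of the transcript (RefSeq, GRCh38.p14), with each match to GAAANNGAAA on either strand in capitals, and overlapping matches merged into 1 run. The places are chr19:17405581-17405880 (minus strand) for BST2, chr1:27672143-27672442 (minus) for IFI6, chr11:313790-314089 (plus) for IFITM1 and chr1:78649539-78649838 (plus) for IFI44.
BST2: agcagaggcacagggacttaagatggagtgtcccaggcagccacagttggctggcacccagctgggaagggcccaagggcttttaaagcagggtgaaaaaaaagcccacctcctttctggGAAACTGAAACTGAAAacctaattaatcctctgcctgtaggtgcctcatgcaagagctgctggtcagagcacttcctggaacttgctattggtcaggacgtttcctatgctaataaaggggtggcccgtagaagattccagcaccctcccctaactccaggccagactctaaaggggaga
IFI6: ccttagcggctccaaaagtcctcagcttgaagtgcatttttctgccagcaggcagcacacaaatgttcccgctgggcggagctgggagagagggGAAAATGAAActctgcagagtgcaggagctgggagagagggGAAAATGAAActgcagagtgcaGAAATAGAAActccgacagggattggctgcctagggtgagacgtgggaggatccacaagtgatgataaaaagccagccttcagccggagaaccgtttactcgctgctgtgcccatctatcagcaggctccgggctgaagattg
IFITM1: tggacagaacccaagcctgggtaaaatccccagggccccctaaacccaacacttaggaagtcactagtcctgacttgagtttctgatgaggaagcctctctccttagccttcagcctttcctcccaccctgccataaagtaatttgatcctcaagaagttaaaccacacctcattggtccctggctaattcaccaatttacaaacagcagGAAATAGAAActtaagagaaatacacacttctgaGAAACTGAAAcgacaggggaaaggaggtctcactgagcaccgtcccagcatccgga
IFI44: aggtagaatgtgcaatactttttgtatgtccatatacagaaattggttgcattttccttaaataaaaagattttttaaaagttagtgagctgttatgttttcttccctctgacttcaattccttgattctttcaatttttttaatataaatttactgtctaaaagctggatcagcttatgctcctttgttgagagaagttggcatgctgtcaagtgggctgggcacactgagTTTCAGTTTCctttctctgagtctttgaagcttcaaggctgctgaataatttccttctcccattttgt
The BST2 promoter held 2 overlapping matches that begin 130 and 124 bases before the start, IFI6 held 3, IFITM1 2 and IFI44 1, the last on the opposite strand. OAS2 and OAS1, which rose more than IFI44, had no listed promoter with a match. Promoters were in the table for 40 of the 49 effectors tested, and 27 of them (67.5%) held the core, against 3.65% of all 27305 promoters of this length and 2.73% of those of all genes tested. Among effectors the share was 66.7% (22 of 33) for those that rose and 71.4% (5 of 7) for those that did not pass. Over all genes it was 5.77% for genes called higher and 1.79% for genes called lower. A match is a string of letters and not a measured binding site.

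Some genes for sensors of double-stranded RNA rose as well. Whether they rose before the effectors or along with them was not tested. Of 18 tested genes for RNA sensing and interferon induction 7 were higher (38.9%, against 7.98% of all genes) and 0 lower, and 5, 5, 5 and 6 were higher without each library. DDX58, which encodes the cytosolic sensor RIG-I, was at 9.28 and 9.73 FPKM in the controls and 18.5 and 17.3 after si-RAB23-9 (log2 difference 0.85, limma adjusted p = 0.0017). IFIH1, which encodes MDA5, was at 6.09 and 5.58 against 9.53 and 9.27 (0.61, limma adjusted p = 0.0037). Both groups were separate for each gene, as they were for 8605 of the 13880 genes tested. TRIM25, a ubiquitin ligase that acts on RIG-I, rose by 0.56 (limma adjusted p = 0.0021), and TRAF3, an adaptor on the way to interferon, by 0.55 (limma adjusted p = 0.0045). EIF2AK2, which encodes PKR, and ADAR, which edits double-stranded RNA, rose by 0.51 and 0.43, and DHX58, which encodes LGP2, by 0.52, the last through the filter only in si-RAB23-9. Without DHX58, 6 of 17 were higher (35.3%). The calls of EIF2AK2 and DHX58 were lost without at least 3 libraries (adjusted p up to 0.0621 and 0.174). The median of the list was 0.07, and 11 of the 18 members did not pass.

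Interferon transcripts themselves stayed low. Of 14 ligands and receptors 9 lay below the filter. Among these were the receptor chains IFNAR2 and IL10RB. Other genes cover 83.2% and 38.1% of their exonic bases, so their low values cannot be read as absence. Of the 5 tested 3 were called higher (60%, against 7.98% of all genes) and 0 lower (against 6.04%). Without IFNL1, which passed the filter only through si-RAB23-9, 2 of 4 were higher (50%). IFNL1, a type III interferon, was at 0.49 and 0.66 FPKM with si-NC, against 1.73 and 1.45 after si-RAB23-9, and no test is given for it. IFNB1 was listed at 0.05, 0, 0.25 and 0.07 FPKM, IFNL2 at 0.17, 0.35, 0.86 and 0.76, and IFNL3 at 0.27, 0.07, 0.55 and 1.53, in the order of libraries above. IFNG and IFNK were at 0 in all 4 libraries. The receptor chains IFNGR1 and IFNGR2 rose by 0.28 and 0.27. The calls of this list were all lost without each of the 4 libraries, with adjusted p-values up to 0.132.

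Among 14 signal transducers of the pathway 3 rose (21.4%, against 7.98% of all genes) and 0 fell. USP18, which damps signalling at the interferon receptor and is itself induced by interferon, rose from 5.47 and 4.71 to 10.8 and 11.6 FPKM (log2 difference 1.00, limma adjusted p = 0.0026). STAT3 rose by 0.23 (limma adjusted p = 0.0205), a call lost without each library (adjusted p up to 0.116). In all 11 members did not pass, and the median of the list was 0.02.

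In the antigen presentation pathway of MHC class I, 5 of 20 tested genes rose (25%, against 7.98% of all genes) and 1 fell (5%, against 6.04%), with 1 higher in each refit without a library. TAP1, a subunit of the peptide transporter, rose from 7.76 and 7.29 to 12.2 and 12.5 FPKM (log2 difference 0.64, limma adjusted p = 0.0037), the call that remained in each refit. B2M, the light chain that every class I molecule needs, went the other way, from 69.2 and 66.1 FPKM with si-NC to 46.8 and 45.8 with si-RAB23-9 (−0.54, limma adjusted p = 0.0026), and kept its call without each library. HLA-B, PSME2 and PSMB8 rose by 0.27, 0.28 and 0.25, calls that were lost without each of the 4 libraries (limma adjusted p up to 0.156, 0.11 and 0.175). Reads of HLA genes can be split among near-identical family members, and the value of HLA-B is uncertain for that reason.

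Of 15 NF-kappaB targets and inflammatory cytokines tested 5 rose (33.3%, where all genes gave 7.98%) and 0 fell. Without CXCL3, which passed the filter only through si-RAB23-9, 4 of 14 rose (28.6%), and refits without each library called 2, 1, 1 and 1 of the 15. CXCL8, the chemokine interleukin-8, was at 4.48 and 3.87 FPKM in the controls and 8.33 and 9.52 after si-RAB23-9 (log2 difference 0.94, limma adjusted p = 0.0045), and kept its call in each refit. TNFAIP3, an inhibitor of NF-kappaB that this factor induces, rose by 0.47 and CXCL3 by 0.84. Their calls were lost without at least 3 of the 4 libraries (adjusted p up to 0.128 and 0.0907). Another 12 members of the list lay below the filter, among them IL6, TNF, CXCL10 and CCL2.

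**Figure D4:**
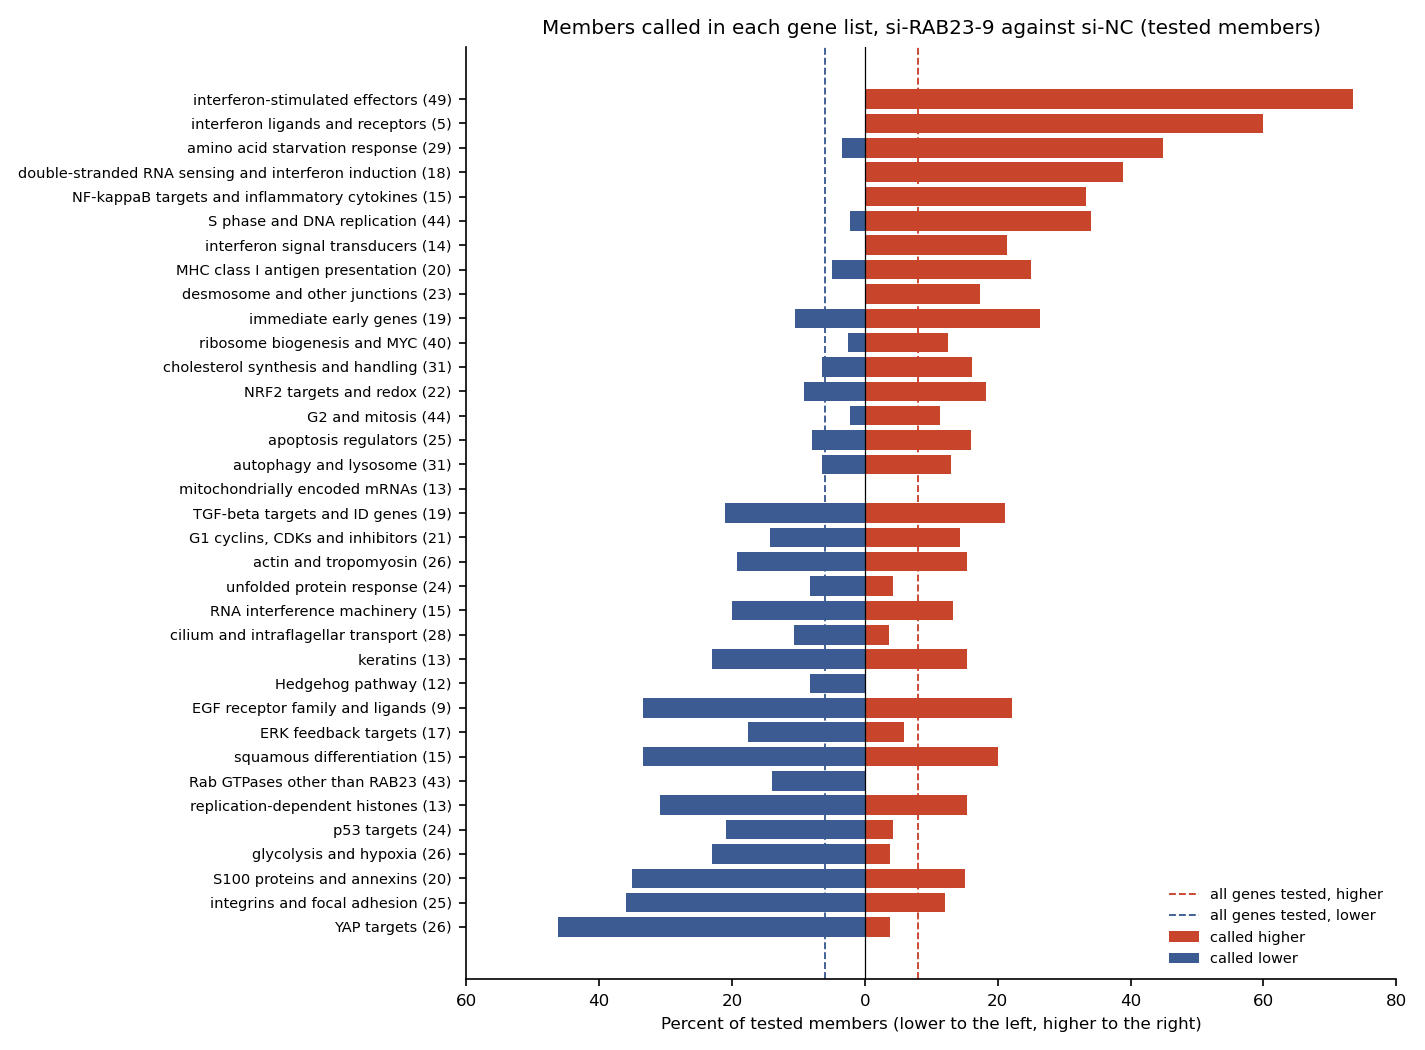
Percent of tested members called higher (red, to the right) and lower (blue, to the left) with si-RAB23-9 in each of 35 gene lists, with the number tested in brackets and dashed lines at the percent of all genes tested. Interferon-stimulated effectors reach 73.5% higher and YAP targets 46.2% lower, while no mitochondrially encoded mRNA was called.

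The genes that fell most were of varied function. S100A10, the small calcium-binding-family protein that pairs with annexin A2 (ENSG00000197747, chromosome 1, 151982915 to 151994390), stood at 293 and 293 FPKM with si-NC, 109 and 106 after si-RAB23-9, and 311 and 308 after si-RAB23-1. The si-RAB23-9 libraries alone were low (log2 difference −1.43, SE 0.03, limma adjusted p = 8.92e-05, the smallest p of the 24 genes named for size). NCEH1, a hydrolase of cholesterol esters, was at 11.3 and 11.1 FPKM in the controls and 3.39 and 3.505 with si-RAB23-9 (−1.46, limma adjusted p = 0.0013). MFSD6, of the major facilitator family of transporters, was at 19.1 and 19.8 against 8.34 and 8.07 (−1.15, limma adjusted p = 0.000979). FBXO28, the substrate-binding part of a ubiquitin ligase, was at 21.2 and 21.7 FPKM and fell to 10.9 and 11.1 (−0.91, limma adjusted p = 0.00129).

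Smaller falls among the 12 genes followed. CPEB4, which binds the polyadenylation element of mRNAs in the cytoplasm, fell by 0.90, from 5.25 and 5.29 to 2.51 and 2.22 FPKM. ARMT1 and RNF11, a RING finger protein, fell by 0.87 and 0.86, and LBR, the lamin B receptor of the inner nuclear membrane, by 0.83. CMTM6, known for stabilising PD-L1 at the cell surface, fell by 0.81, from 25.7 and 25.9 to 14.9 and 13.7 FPKM. Their adjusted p-values in limma lay between 0.00122 and 0.00358, and all 9 protein-coding genes among the 12 kept their calls without each library.

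Many of the genes that fell share a short string in the 3′ UTR. The heptamer AAGTTAA came from earlier results of these data, where it stood out among genes that fell, so its share among them is a description without a test. Of the 9 of the 12 genes with an annotated 3′ UTR 8 held it, and LBR held none. One copy per gene is shown, with 12 bases before and 11 after, as RNA-sense sequence in DNA letters from GENCODE 29 on GRCh38, the heptamer in capitals. In MFSD6 the 4 copies begin at bases 535, 542, 548 and 561 of the 3′ UTR. Only the first is in capitals, and the window shown does not reach all of them.
S100A10: gcagagaaagaaAAGTTAAataccagataa
NCEH1: gtgacctttaatAAGTTAAaaaaacgagga
MFSD6: ttgttaaaaataAAGTTAAaagttaaagtt
FBXO28: aatgttgaaagtAAGTTAAtttgtttctgc
CPEB4: cagcaatggaggAAGTTAAcaatttttaat
ARMT1: gctgggttaagcAAGTTAAagatatttaca
RNF11: tctataaaaaatAAGTTAAtgtgtcaagaa
CMTM6: agtaggccagatAAGTTAAaaaaaattttt
These copies lie at chr1:151982982-151983011 (minus strand, S100A10), chr3:172633079-172633108 (minus strand, NCEH1), chr2:190500741-190500770 (plus strand, MFSD6), chr1:224158013-224158042 (plus strand, FBXO28), chr5:173956668-173956697 (plus strand, CPEB4), chr6:151469304-151469333 (plus strand, ARMT1), chr1:51272018-51272047 (plus strand, RNF11) and chr3:32483765-32483794 (minus strand, CMTM6). The 3′ UTRs held 1 copy in S100A10 and CMTM6, 2 in NCEH1, CPEB4, ARMT1 and RNF11, 3 in FBXO28 and 4 in MFSD6. B2M, which fell while 5 of the 20 tested MHC class I genes rose and 14 did not pass, held 3 copies. Their part in its fall was not tested. Outside the flanks of the heptamer no further likeness between these windows was looked for.

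RAB23 itself held no copy in its longest annotated 3′ UTR but 2 in the coding sequence of both of its transcripts that code for protein. The first spans the junction after exon 2, and the second lies in exon 5 at chr6:57194804-57194833 (minus strand), shown because it is the same string within the targeted gene.
RAB23: gcaaaaaggttaAAGTTAAgattctacaga
Whether either siRNA is directed at this place cannot be read from the sources used here.

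Over all 10825 genes with a scanned 3′ UTR, the share that fell with si-RAB23-9 rose with the number of copies. It was 4.45% of 9019 genes without the heptamer, 15.6% of 1369 genes with 1 copy, 27.2% of 323 with 2 and 35.1% of 114 with 3 or more. The share that rose went the other way, from 10.7% to 4.53%, 2.17% and 0.877%. Median log2 fold changes were 0.03, −0.06, −0.11 and −0.14. In the libraries with si-RAB23-1, set against the same si-NC, the shares that fell were 9.04%, 8.55%, 9.91% and 8.77%. Without each library fewer genes were called in all classes, and the class with 3 or more copies held 11.4%, 11.4%, 11.4% and 10.5% lower against 0.543%, 0.577%, 0.721% and 0.477% of genes without a copy, and the medians of the classes with a copy stayed below 0 in each refit.

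Genes with the heptamer have longer 3′ UTRs, with a median of 3106 against 1111 bases, and fewer G and C bases there (37.15% against 44.85%). In the shortest UTRs, of up to 500 bases, 22.4% of 49 genes with the heptamer fell, against 3.74% of 2300 without it. In the longest UTRs the shares were 16.04% of 642 and 5.88% of 731, and the classes between gave 19.6% to 20.9% against 3.60% to 5.48%. The part of base composition was not tested. Of all 1806 genes with at least 1 copy 342 fell and 70 rose, TPM4 among the latter.

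**Figure D5:**
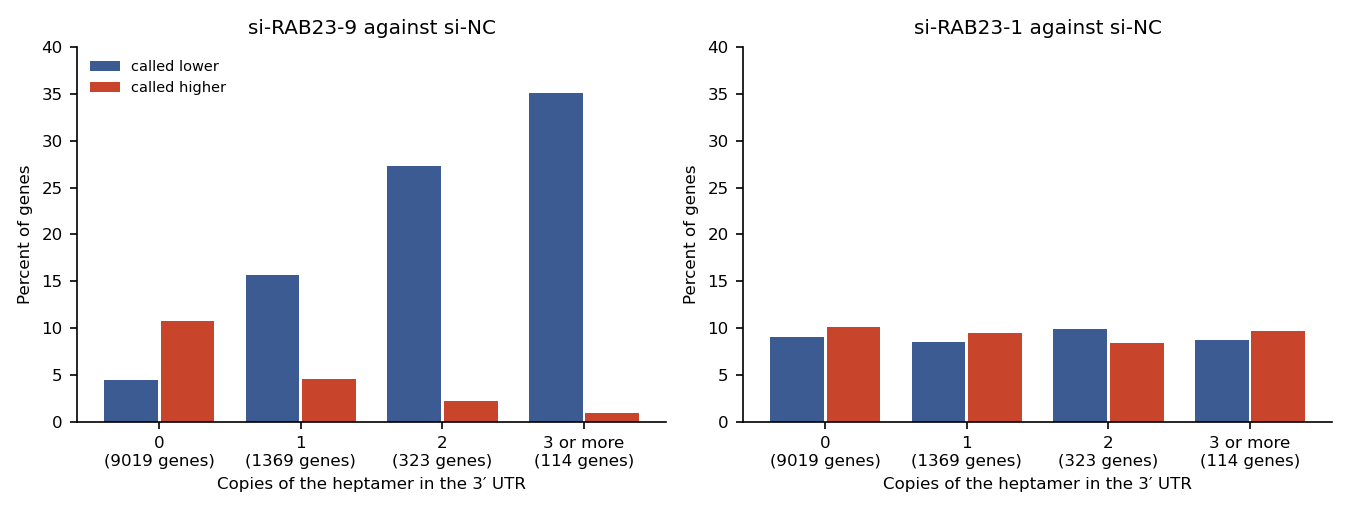
Percent of genes called lower (blue) and higher (red) by the number of copies of AAGTTAA in the annotated 3′ UTR, with si-RAB23-9 on the left and si-RAB23-1 on the right, both against si-NC, and the number of genes under each class. On the left the blue bars climb from 4.45% to 35.1%, and on the right they stay between 8.55% and 9.91%.

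Of 15 tested genes of the RNA interference machinery 3 fell (20%, against 6.04% of all genes) and 2 rose (13.3%, against 7.98%), and all 5 calls were lost without each library. TNRC6C and AGO3, a scaffold and an Argonaute protein of the silencing complex, fell by 0.43 and 0.39 (limma adjusted p = 0.033 and 0.0163), and each holds 2 copies of the heptamer. DICER1, which cuts small RNAs from their precursors, fell by 0.30. SND1 and DROSHA rose by 0.16 and 0.25, and DROSHA holds 1 copy. Among genes that rose elsewhere, IFIH1, EIF2AK2, MARCKS, ID3 and ORC6 hold 1 copy each, and of the 8 tested effectors with a copy 6 rose and 0 fell.

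In the Hedgehog pathway, in which RAB23 is known to act, 0 of 12 tested genes rose (7.98% over all genes) and 1 fell (8.33%, where all genes gave 6.04%), with a median of 0.02. PRKACB, a catalytic subunit of protein kinase A, which restrains GLI factors, was at 12.6 and 13.1 FPKM in the controls and 10.4 and 10.0 after si-RAB23-9 (log2 difference −0.31, limma adjusted p = 0.015, lost without each library, up to 0.0997). A further 10 members lay below the filter, including SMO (0.06, 0.05, 0.10 and 0.16 FPKM), the signal-transducing receptor, and GLI1 (0.21, 0.15, 0.24 and 0.16), the target most often read for pathway activity. At these levels neither SMO nor GLI1 was tested, so no change or lack of change is given for them.

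Of 43 tested Rab GTPases other than RAB23, 0 rose and 6 fell (13.95%, against 6.04% of all genes), and 0 were called without each library. RAB2B fell by 0.40, RAB8A by 0.38, RAB21 by 0.25 and RAB14 by 0.19, proteins of secretory and endosomal traffic. RAB8A, with 8.96 and 8.78 FPKM in the controls and 6.50 and 6.64 with si-RAB23-9, came closest to its call in the refits (limma adjusted p = 0.0058 with all libraries and up to 0.0523). RAB21 holds 7 copies of the heptamer. Of 28 tested genes of the cilium 3 fell (10.7%, against 6.04% of all genes) and 1 rose (3.57%, against 7.98%), the motor subunits KIF3A and KIFAP3 by 0.34 each and the transport subunits WDR35 (−0.37) and IFT27 (0.33), and all 4 calls were lost without each library.

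Of 25 tested integrin and focal adhesion genes 9 fell (36.0%, against 6.04% of all genes) and 3 rose (12%, against 7.98%). Without each library 2, 3, 2 and 2 were lower and 1, 2, 1 and 1 higher. ITGB4, the integrin chain of hemidesmosomes, was at 407 and 377 FPKM in the controls and 293 and 290 after si-RAB23-9 (log2 difference −0.43, limma adjusted p = 0.0044). LIMS1, an adaptor of integrin-linked kinase with 2 copies of the heptamer, fell by 0.53, from 10.2 and 11.1 to 7.26 and 6.84 FPKM. RAC1, a small GTPase of lamellipodia, rose from 105 and 101 to 143 and 146 FPKM (0.48, limma adjusted p = 0.0023). These 3 kept their calls in each refit. CAV1 and ITGA3 fell by 0.37 and 0.35, and ITGB8 and PTK2 rose by 0.45 and 0.15, calls lost without at least 3 libraries (adjusted p up to 0.213). CDC42 and ILK were listed under 1 FPKM in all 4 libraries, and other genes cover 59.4% and 78.5% of their exonic bases, so their low values cannot be read as absence.

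Among 26 tested actin-related genes 4 rose (15.4%, against 7.98% of all genes) and 5 fell (19.2%, against 6.04%). TPM4, a tropomyosin, rose from 20.5 and 22.2 to 46.6 and 43.7 FPKM (log2 difference 1.05, limma adjusted p = 0.00172), and MARCKS, which links actin to the membrane, from 35.3 and 38.03 to 54.1 and 57.5 (0.59, limma adjusted p = 0.0035). ACTG1, cytoplasmic gamma actin, fell from 1146 and 1109 to 891 and 866 FPKM (−0.36, limma adjusted p = 0.0034). All 3 calls held in each refit. The myosin light chains MYL12A and MYL12B fell by 0.31 and 0.27, and the heavy chain MYH9 rose by 0.18, calls that were lost without 3 or 4 of the libraries (adjusted p up to 0.109).

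Of 20 tested S100 proteins and annexins 7 fell (35.0%, against 6.04% of all genes) and 3 rose (15%, against 7.98%), with 3, 3, 4 and 3 lower without each library. Besides S100A10, ANXA3 fell from 8.81 and 8.28 to 5.03 and 5.08 FPKM (log2 difference −0.66, limma adjusted p = 0.0052) and ANXA8 from 10.2 and 10.6 to 6.54 and 6.93 (−0.56, limma adjusted p = 0.0036), both calls that held. S100A2, at 18.2 and 18.1 against 12.2 and 10.6, fell by 0.63 and lost its call without 3 libraries (adjusted p up to 0.0681). S100A4 rose by 0.50, S100A11 by 0.22 and S100A14 by 0.17, the last 2 called only with all 4 libraries.

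Keratins and differentiation genes went both ways. KRT80 fell from 136 and 127 to 96.1 and 98.1 FPKM (log2 difference −0.43, limma adjusted p = 0.0057), and KRT8 and KRT19, keratins of simple epithelia, by 0.23 and 0.27. KRT13 and KRT6A, keratins of stratified epithelia, rose by 0.61 and 0.35 at limma adjusted p-values of 0.0499 and 0.0372, calls lost without each library, so that of 13 tested keratins 3 fell (23.1%) and 2 rose (15.4%), beside 6.04% and 7.98% of all genes. Of 15 tested squamous differentiation genes 5 fell (33.3%) and 3 rose (20%). SCEL, sciellin of the cornified envelope, fell from 22.2 and 21.3 to 13.5 and 12.3 FPKM (−0.71, limma adjusted p = 0.0038), and PADI1, a peptidylarginine deiminase, from 13.2 and 12.02 to 7.76 and 7.74 (−0.64, limma adjusted p = 0.0036), the 2 calls of this list that held in each refit. Of 23 tested junction genes 4 rose (17.4%) and 0 fell, and none of these held in all refits. The connexins GJA1 and GJB2 rose by 0.55 and 0.54, PERP by 0.24 and CDH1, E-cadherin, by 0.13 (adjusted p up to 0.0509, 0.0868, 0.0845 and 0.217 without a library). SOX2, a squamous lineage factor named after its values were seen, was at 35.8 and 40.6 FPKM in the controls and 65.4 and 62.5 with si-RAB23-9 (0.73, limma adjusted p = 0.0057).

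The EGF receptor fell while some of its ligands rose. EGFR went from 163 and 162 to 136 and 139 FPKM (log2 difference −0.24, limma adjusted p = 0.0115), and its ligand TGFA and its inhibitor ERRFI1 by 0.26 and 0.39. AREG, amphiregulin, rose from 54.5 and 52.4 to 90.3 and 92.5 FPKM (0.76, limma adjusted p = 0.0023) and EREG, epiregulin, by 0.53. Of the 9 members tested 2 rose (22.2%, against 7.98% of all genes) and 3 fell (33.3%, against 6.04%), and AREG alone kept its call without each library. Of 17 tested ERK feedback targets 3 fell (17.6%, against 6.04%), SPRY4 by 0.47, SPRED1 by 0.37 and PHLDA1 by 0.32, each with at least 1 copy of the heptamer, and EPHA4 alone rose, by 0.49 (5.88%, against 7.98%). All 4 calls were lost in at least 2 refits (adjusted p up to 0.183).

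Of 26 tested YAP targets 12 fell (46.2%, against 6.04% of all genes) and 1 rose (3.85%, against 7.98%), at a median log2 difference of −0.22. Without each library 5, 4, 6 and 3 fell, and 3 fell in all refits. TGFB2, a TGF-beta ligand, was at 3.06 and 2.77 FPKM in the controls and 1.25 and 1.19 with si-RAB23-9 (−0.82, limma adjusted p = 0.0042). AJUBA, a LIM protein that binds LATS kinases, fell from 12.4 and 11.4 to 7.49 and 7.15 FPKM (−0.63, limma adjusted p = 0.0035), and NT5E, the surface nucleotidase CD73, from 32.7 and 31.9 to 20.8 and 20.5 (−0.62, limma adjusted p = 0.0043). WWTR1, which encodes the YAP paralogue TAZ, fell by 0.57 (adjusted p up to 0.0558 without a library), and IGFBP3 rose by 0.51 and kept its call. With si-RAB23-1 against the same controls, 9 members rose and 5 fell. In that contrast 9.93% of the 10825 genes with a scanned 3′ UTR rose and 9.00% fell. CTGF and CYR61, often used as readouts of YAP, went opposite ways with the siRNAs, CYR61 by −0.42 with si-RAB23-9 (lost without each library, adjusted p up to 0.113) and 1.07 with si-RAB23-1. CTGF stood at 7.61 and 8.51 FPKM with si-NC, 6.09 and 5.69 after si-RAB23-9 and 20.1 and 17.3 with si-RAB23-1. Between the siRNAs it differed by −1.51 (limma adjusted p = 0.0012), the largest such difference among genes that fell with si-RAB23-9, while its fall against si-NC (−0.39, limma adjusted p = 0.0358) lost its call without each library (up to 0.171).

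TGF-beta targets and ID genes split evenly, with 4 higher and 4 lower of 19 tested (21.1% each, beside 7.98% and 6.04% of all genes). INHBA, a subunit of activin, rose by 0.54 (1.24 and 1.16 against 2.10 and 2.32 FPKM, limma adjusted p = 0.0159) and ID3 by 0.38. ID2 fell by 0.33, SMAD3 by 0.19 and PMEPA1 by 0.20, and TGFBI rose by 0.24. Apart from TGFB2 no call of this list held in all refits. Of 19 tested immediate early genes 5 rose (26.3%) and 2 fell (10.5%). BTG2, an antiproliferative gene, rose from 13.4 and 15.0 to 22.9 and 25.7 FPKM (0.73, limma adjusted p = 0.0055, held in each refit), MYC by 0.51, JUN by 0.41 and IER2 by 0.30, and CYR61 and ZFP36 fell by 0.42 and 0.33.

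Of 44 tested genes for S phase and DNA replication 15 rose (34.1%, against 7.98% of all genes) and 1 fell (2.27%, against 6.04%), at a median log2 difference of 0.15. The rises were small and none kept its call in every refit, which gave 0, 2, 0 and 1 higher. RFC2, a subunit of the clamp loader, rose from 23.1 and 24.4 to 33.2 and 31.2 FPKM (0.43, limma adjusted p = 0.007), GINS2, of the replicative helicase, by 0.40, CHAF1B by 0.34 and ORC6 by 0.34. RRM2, a subunit of ribonucleotide reductase with 3 copies of the heptamer, was the exception, at 13.98 and 13.5 FPKM with si-NC and 8.95 and 8.16 with si-RAB23-9 (−0.62, limma adjusted p = 0.008). RRM2B, its p53-induced paralogue, also holds 3 copies and fell from 7.37 and 7.63 to 4.91 and 4.65 FPKM (−0.56, limma adjusted p = 0.0037), and kept its call in each refit, while that of RRM2 was lost without 3 libraries (up to 0.0613).

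Elsewhere in the cell cycle, of 21 tested G1 genes 3 rose and 3 fell (14.3% each, beside 7.98% and 6.04% of all genes). CCND1, cyclin D1, was at 114 and 113 FPKM in the controls and 75.9 and 77.0 after si-RAB23-9 (log2 difference −0.56, limma adjusted p = 0.0013), the 1 call of this list that held throughout. CDKN1B and CDKN2B, inhibitors of the cyclin-dependent kinases, fell by 0.31 and 0.26, and CCNE1, cyclin E1, rose by 0.42. Of 44 tested G2 and mitosis genes 5 rose (11.4%, against 7.98%) and 1 fell (2.27%, against 6.04%), among them BIRC5, survivin, from 33.3 and 34.5 to 47.4 and 46.2 FPKM (0.45, limma adjusted p = 0.0038, held in each refit). ANLN, the scaffold of the cleavage furrow, fell by 0.28. Of 13 tested histone genes 4 fell (30.8%) and 2 rose (15.4%), with HIST1H2BK at 181 and 177 against 101 and 106 FPKM (−0.78, limma adjusted p = 0.0036, held in each refit). Other histone genes are near-identical copies whose reads may be split between them.

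Of 24 tested p53 targets 5 fell (20.8%, against 6.04% of all genes) and 1 rose (4.17%, against 7.98%), the latter BTG2, with RRM2B the 1 fall that held in each refit. A fit to the 4 libraries alone called 4 of these targets higher. GDF15 and TP53INP1 fell by 0.49 and 0.47 and ZMAT3 by 0.34 (adjusted p up to 0.106, 0.0794 and 0.0957 without a library). Of 25 tested regulators of apoptosis 4 rose (16%) and 2 fell (8%). BIRC5 is counted here as well, and BIK and BOK, pro-apoptotic BCL2 family members, rose by 0.29 and 0.28. XIAP, an inhibitor of apoptosis, fell by 0.26, and these 3 smaller changes were lost without each library.

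In the amino acid starvation response 13 of 29 tested members rose (44.8%, against 7.98% of all genes) and 1 fell (3.45%, against 6.04%), at a median log2 difference of 0.18, and 6, 1, 2 and 2 rose without each library. TRIB3, a pseudokinase, rose from 15.0 and 15.1 to 21.9 and 22.9 FPKM (0.54, limma adjusted p = 0.0026) and was the 1 member called in every refit. PCK2 rose by 0.59, SLC7A1, a transporter of basic amino acids, by 0.52, and DDIT4, an inhibitor of mTORC1, by 0.40, and SLC7A5, a transporter of large neutral amino acids, fell by 0.28 (adjusted p up to 0.0585, 0.0544, 0.0916 and 0.0703 without a library). The unfolded protein response, a separate branch, gave 1 higher (4.17%) and 2 lower (8.33%) of 24. HSPA5, the chaperone BiP, went from 265 and 264 to 232 and 233 FPKM (−0.19, limma adjusted p = 0.0116, lost without each library), and SEL1L, of ER-associated degradation, fell by 0.49 and kept its call.

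In metabolism, of 31 tested genes of cholesterol synthesis and handling 5 rose (16.1%, against 7.98% of all genes) and 2 fell (6.45%, against 6.04%). NCEH1, given above, was among those that fell. INSIG1, which retains the SREBP complex in the ER, rose from 17.2 and 17.6 to 24.6 and 25.2 FPKM (log2 difference 0.49, limma adjusted p = 0.0026), and both of these calls held in each refit. SQLE and FDPS, enzymes of the synthesis, rose by 0.21 each and lost their calls without each library. Of 26 tested glycolysis and hypoxia genes 6 fell (23.1%, against 6.04%) and 1 rose (3.85%, against 7.98%), with HK2 lower by 0.31, BNIP3 by 0.28 and SLC2A1 by 0.21 and PFKL higher by 0.31, and none was called without a library.

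Of 40 tested genes of ribosome biogenesis and MYC 5 rose (12.5%, against 7.98% of all genes) and 1 fell (2.5%, against 6.04%). NOLC1, a nucleolar phosphoprotein, rose from 36.2 and 37.7 to 63.4 and 63.1 FPKM (log2 difference 0.76, limma adjusted p = 0.0021), and DDX21, a nucleolar helicase with 2 copies of the heptamer, fell from 47.2 and 49.4 to 34.5 and 32.9 (−0.51, limma adjusted p = 0.0069, up to 0.06 without a library). MYC was at 23.1 and 22.1 against 34.1 and 31.2 FPKM (0.51, limma adjusted p = 0.0111, up to 0.0767). Of 22 tested NRF2 targets 4 rose (18.2%) and 2 fell (9.09%). The ferritin chains parted. FTL, the light chain, rose from 1531 and 1523 to 1921 and 1917 FPKM (0.33, limma adjusted p = 0.0026, held in each refit), and FTH1, the heavy chain, fell by 0.23 (lost without each library, up to 0.189), and other genes cover 62.4% of its exonic bases. TXNRD1, thioredoxin reductase, fell by 0.38 and ME1, malic enzyme, rose by 0.40.

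Of 31 tested autophagy and lysosome genes 4 rose (12.9%, against 7.98% of all genes) and 2 fell (6.45%, against 6.04%), among them WIPI2 (0.34), ULK1 (0.27), ATG12 (−0.43, with 2 copies of the heptamer) and MAP1LC3B (−0.26), and none held in all refits. None of 13 mitochondrially encoded mRNAs was called in limma, although 4 fell short only of the adjustment (unadjusted p under 0.05, all lower) and voom called 5 lower. Their median log2 fold change was −0.07.

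Among the 24 genes named for size, 4 are short non-coding genes that lie within the span of longer genes, without shared exonic bases. A role of the longer genes' transcripts in their values was not tested. RNU6-1048P, a U6 pseudogene, rose on 5, 5, 11 and 12 reads in the 4 libraries, and SNORD6 (21, 11, 5 and 5 reads), MIR149 (80, 55, 22 and 32) and RNU6ATAC18P (15, 13, 6 and 5) fell. Voom on the recovered reads did not call RNU6-1048P (adjusted p = 0.0686), SNORD6 (0.0771) or RNU6ATAC18P (0.159), and it did call MIR149 (0.00578). SNORD6 lost its call without each si-RAB23-9 library (adjusted p up to 0.0867), MIR149 without each si-NC library (up to 0.121), and RNU6ATAC18P without si-NC replicate 1, si-NC replicate 2 and si-RAB23-9 replicate 2 (up to 0.0675). Of the longer genes TAF1D (around SNORD6), GPC1 (MIR149) and LRPPRC (opposite RNU6-1048P) were not called, and DHRS3, around RNU6ATAC18P, fell by 0.38 (limma adjusted p = 0.0127). ZBED6CL, at 5.08 and 4.71 against 10.9 and 12.6 FPKM (log2 difference 1.11), lies within LRRC61 on the same strand, which rose by 0.75.

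The changes were then set against the other siRNA to RAB23. In the direct contrast, which uses the same si-RAB23-9 libraries, 1626 genes were higher (11.7%) and 1418 lower (10.2%) for si-RAB23-9. The 24 genes named for size were picked for large changes in those libraries, so a difference in the same direction was favoured beforehand. Of the 24, 22 differed in the direction of their change against si-NC. The exceptions were TPM4, at 51.9 and 48.0 FPKM with si-RAB23-1 (difference −0.14, limma adjusted p = 0.151), and RNU6ATAC18P (−0.17, limma adjusted p = 0.335). A p that misses the threshold does not show that the siRNAs act alike. Both siRNAs share the si-NC libraries, and the values against them stand side by side as follows. TPM4 was higher by 1.05 with si-RAB23-9 and by 1.19 with si-RAB23-1, IFI44 by 1.27 and 0.34, and RNU6-1048P by 1.12 and 0.47. In the same order, log2 differences were −1.15 and −0.18 for MFSD6, −0.91 and −0.23 for FBXO28, −0.90 and −0.43 for CPEB4, −0.87 and −0.25 for ARMT1, and −0.90 and −0.73 for RNU6ATAC18P. These are the genes of the 24 that limma called against si-NC in both comparisons, chosen for that after their values were seen. RAB23 did not pass between the siRNAs either (0.11, limma adjusted p = 0.371).

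In the contrast between the siRNAs, 11.7% of all genes tested were higher with si-RAB23-9 and 10.2% lower, shares that the list counts here stand beside. For the interferon-stimulated effectors 37 of 49 were higher with si-RAB23-9 than with si-RAB23-1 and 0 were lower. The 49 include IFI27 and IFI44L, which passed the level filter through si-RAB23-9 alone. That filter did not use si-RAB23-1, so for them a higher value with si-RAB23-9 was favoured beforehand. For OAS1 and OAS3 the siRNAs differed by 1.41 and 1.35 (limma adjusted p = 0.000844 for both). S100A10 differed by −1.51 (limma adjusted p = 6.53e-05), NCEH1 by −1.45 and RNF11 by −1.01. Against si-NC, si-RAB23-1 gave 8 effectors higher and 3 lower with a median of 0.09, beside 36, 0 and 0.59 for si-RAB23-9. Of the 10825 genes with a scanned 3′ UTR, si-RAB23-1 against si-NC gave 9.93% higher and 9.00% lower. S phase genes were higher with si-RAB23-9 than with si-RAB23-1 in 27 of 44 cases and lower in 1, and G2 and mitosis genes in 28 of 44 and 0. For the latter, si-RAB23-1 against si-NC gave 0 higher and 24 lower, beside the 9.93% and 9.00% of genes with a scanned 3′ UTR. MIR3128, which lies in NFE2L2, had the largest difference among genes that rose with si-RAB23-9, but it rests on 1, 0, 3 and 3 reads in the 4 libraries and 0 with si-RAB23-1. With 0 reads in si-NC replicate 2, it passed the level filter through si-RAB23-9, so that a rise was favoured beforehand. That filter did not use si-RAB23-1 either. No limma test against si-NC is given for it, and voom on the recovered reads did not call it (adjusted p = 0.0782).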

How the data were processed

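Total RNA of KYSE30 cells was sequenced in 6 libraries. The authors deposited 1 table of FPKM for 58735 genes. The submitters' processing notes name edgeR 3.8.5, RSEM 1.2.29, STAR 2.5.1b, Trimmomatic 0.36, FastQC and, as build, hg19, without their roles, while all gene coordinates in the table equal those of GENCODE 29 on GRCh38, which is the build used here. The FPKM, as deposited, were whole multiples of what 1 read is worth for 100% of values (tolerance 0.01 read), so reads per gene were recovered. Library totals were 17211025 to 24178125 reads. No source used here gives the RNA selection, strandedness or read length.

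Genes with an FPKM of at least 1 in at least 2 of the 4 si-NC and si-RAB23-9 libraries were tested on log2(FPKM + 1) with limma 3.58.1 (R 4.3.3, mean-dependent prior variance) in 1 fit over all 6 libraries, with 3 residual degrees of freedom. The contrasts took si-NC, then si-RAB23-1, from si-RAB23-9, and the change with si-RAB23-1 against si-NC is given beside them. P-values were adjusted by Benjamini-Hochberg over all 13880 genes, and a gene was called at an adjusted p under 0.05. Tables and sequences were handled in Python 3.11.15 with pandas 2.3.3. The fit was run on simulated data with changes larger than most of those called here, so the simulation does not bear on small changes. The heptamer was counted in 3′ UTRs of GENCODE 29, and promoters came from RefSeq on GRCh38.p14, searched on both strands, where matches may overlap.

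Named were RAB23, the 12 called genes of largest rise and of largest fall (mean of at least 3 FPKM, no overlap of the groups), up to 4 called members of each list and direction, and the genes that differ most between the siRNAs. SOX2, genes next to named genes, and members given as not called or below the filter were chosen after their values were seen. Members of the comparison, the 35 gene lists and the heptamer were chosen with earlier results of these data known, so counts over lists are descriptions. Alternatives were another pseudocount, filter, scaling and test, the replicate block, and leaving out each library. Some called members of these lists are not reported here by name, and they stay in the counts.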

Additional observations from a re-analysis of the deposited data

How the results depend on the processing

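Of the counts over all genes, 1108 higher and 838 lower became 586 and 444 when every gene with an FPKM above 0 was tested, and 1881 and 1543 with voom on the recovered reads. Leaving out 1 library gave 158 to 1239 higher and 130 to 953 lower, the lowest without a si-NC or si-RAB23-9 library and the highest without a si-RAB23-1 library. The effectors called higher ranged from 23 to 37 when 1 library was left out, and from 31 to 41 under the other alternatives. The fall of RAB23 kept its call throughout, between −0.98 and −0.92 with 1 library left out, and it was not given under a filter on a mean of 5 FPKM, which it does not reach. Of the 24 genes named for size, 19 differed between the siRNAs under the filter on a mean of 5 FPKM. That filter leaves some of the 24 untested, CPEB4 and OAS2 among them. The 31 effectors called higher under it are likewise not out of all 49. Leaving out list members that passed the level filter through 1 group only, an alternative chosen after seeing the data, gave 34 effectors higher. The fit with a replicate block called 874 genes higher and 640 lower. Library deviations correlated at −0.02 between si-NC and si-RAB23-9 of the same number, and with 2 numbers the samples share only a number, so the block is no paired design. Of 188 named results, 109 kept their call when every gene above 0 was tested, 159 with the replicate block and 173 with quantile normalization, and 64 to 76 without 1 si-NC or si-RAB23-9 library. None changed direction under any alternative run. The contrast between the siRNAs cannot be had from the 4 libraries alone. The number of libraries, 2 a group, limits which small changes pass, and at under 10 reads, as for 699 genes tested, counting error limits them as well.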
